A study of Homo sapiens with 4 samples.

Results

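ALDH3A2 and ALDH3A1 are neighbouring aldehyde dehydrogenase genes on chromosome 17, and their accessibility was read from the peaks that overlap chr17:19450000-19680000 (hg19), a window of 230 kb. On hg19 ALDH3A2 lies at about chr17:19551449-19580909 on the plus strand and ALDH3A1 at about chr17:19641298-19651746 on the minus strand, 60.4 kb further on, so that the genes point towards each other and their starts are 100.3 kb apart. The member peaks were taken by position alone, within a window chosen with earlier results of these data known. They comprise 25 peaks out of 181268 in the 4 deposited lists, and these merged into 12 regions out of 87966 in all.

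The assay was ATAC-seq, in which a transposase cuts accessible DNA, on H1 cells, an established line of human embryonic stem cells grown without feeders on Matrigel. Of the 4 groups, control cells stayed in the growth medium with N2, B27 and 20 ng/ml of basic FGF. The others spent 6 h in a B27 medium whose listed supplements include no N2 and no basic FGF, with Activin A at 25 ng/ml, with Wnt3a at 25 ng/ml, or with both at 25 ng/ml each. Each group had 1 library, so ligand and medium cannot be told apart in any comparison with control, no difference has a replicate check, and no test between groups was made. The intervals below are exact (Clopper-Pearson) 95% intervals that cover counting error only, and the number of reads behind each list is unknown.

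ALDH3A2 encodes fatty aldehyde dehydrogenase, an enzyme of the endoplasmic reticulum that oxidises long-chain aliphatic aldehydes to fatty acids, and its loss causes Sjögren-Larsson syndrome. ALDH3A1 encodes a related enzyme that acts on aromatic and medium-chain aldehydes and is best known from the cornea and stomach. Activin A signals through SMAD2 and SMAD3, and Wnt3a stabilises beta-catenin, which acts with TCF/LEF factors. The title of the series names ALDH3A2 as a gene raised by these pathways during the step from embryonic stem cells to mesendoderm, and the comparisons below ask where chromatin around it was accessible in each group.

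The RefSeq promoter table for GRCh38.p14 lists a pair of starts for ALDH3A2, the second 615 bases after the first in the direction of the gene. They are shown because the peaks at the gene differed in which of these starts they covered. The 250 bases before each start are printed 5′ to 3′ on the plus strand, with CG dinucleotides in capitals. The first run is chr17:19647886-19648135 and the second is chr17:19648501-19648750, both on GRCh38.p14 and not on the build of the peaks.
ALDH3A2 first start: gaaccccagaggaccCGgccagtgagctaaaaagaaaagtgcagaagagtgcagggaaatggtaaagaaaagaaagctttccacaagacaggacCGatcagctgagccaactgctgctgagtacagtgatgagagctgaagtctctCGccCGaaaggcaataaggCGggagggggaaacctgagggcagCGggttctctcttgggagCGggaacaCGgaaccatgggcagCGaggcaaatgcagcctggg
ALDH3A2 second start: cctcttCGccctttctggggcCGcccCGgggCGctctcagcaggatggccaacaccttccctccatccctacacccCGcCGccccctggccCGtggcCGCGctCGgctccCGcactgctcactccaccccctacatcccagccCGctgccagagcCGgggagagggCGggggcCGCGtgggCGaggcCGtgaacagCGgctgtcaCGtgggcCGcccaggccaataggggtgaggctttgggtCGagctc

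The sequence before the first start held 9 CG dinucleotides and 55.6% G+C, and that before the second start held 22 and 73.2%. Over the 34943 distinct promoters of the table the median was 11 CG dinucleotides in the same length, and 25.8% of promoters held more than the second ALDH3A2 start. None of 6 motifs searched on both strands was found before either start. These were CTTTGAT for TCF/LEF (in 2.27% of all promoters), CAGAC for SMAD (38.0%) and the SMAD palindrome GTCTAGAC (0.183%). The others were GGCGCC as a GC-rich SMAD sequence (16.4%), TGTGGATT for FOXH1 (0.707%) and TATAAA for the TATA box (10.8%). Other GC-rich SMAD sequences were not searched. An absent match says only that these letters are not in these windows. ALDH3A1 had no entry in the table.

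Across the window, peaks were most numerous in the 2 groups given Activin A. The control list held 3 peaks, the Activin A list 10, the Wnt3a list 4 and the list for both ligands 8, and they covered 1.52, 7.20, 2.19 and 7.91 kb in that order. The lists themselves held 26223, 75585, 21078 and 58382 peaks. When chromosome 17 was divided into 354 stretches of the same length, the median stretch held 3, 8, 2 and 7 peaks in the same order of groups, which gives no sign of a window richer in peaks than its chromosome. When every list was cut to its 21078 highest scores, the length of the shortest list, the window held 3 peaks in control, 3 with Activin A, 4 with Wnt3a and 4 with both.

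**Figure D1:**
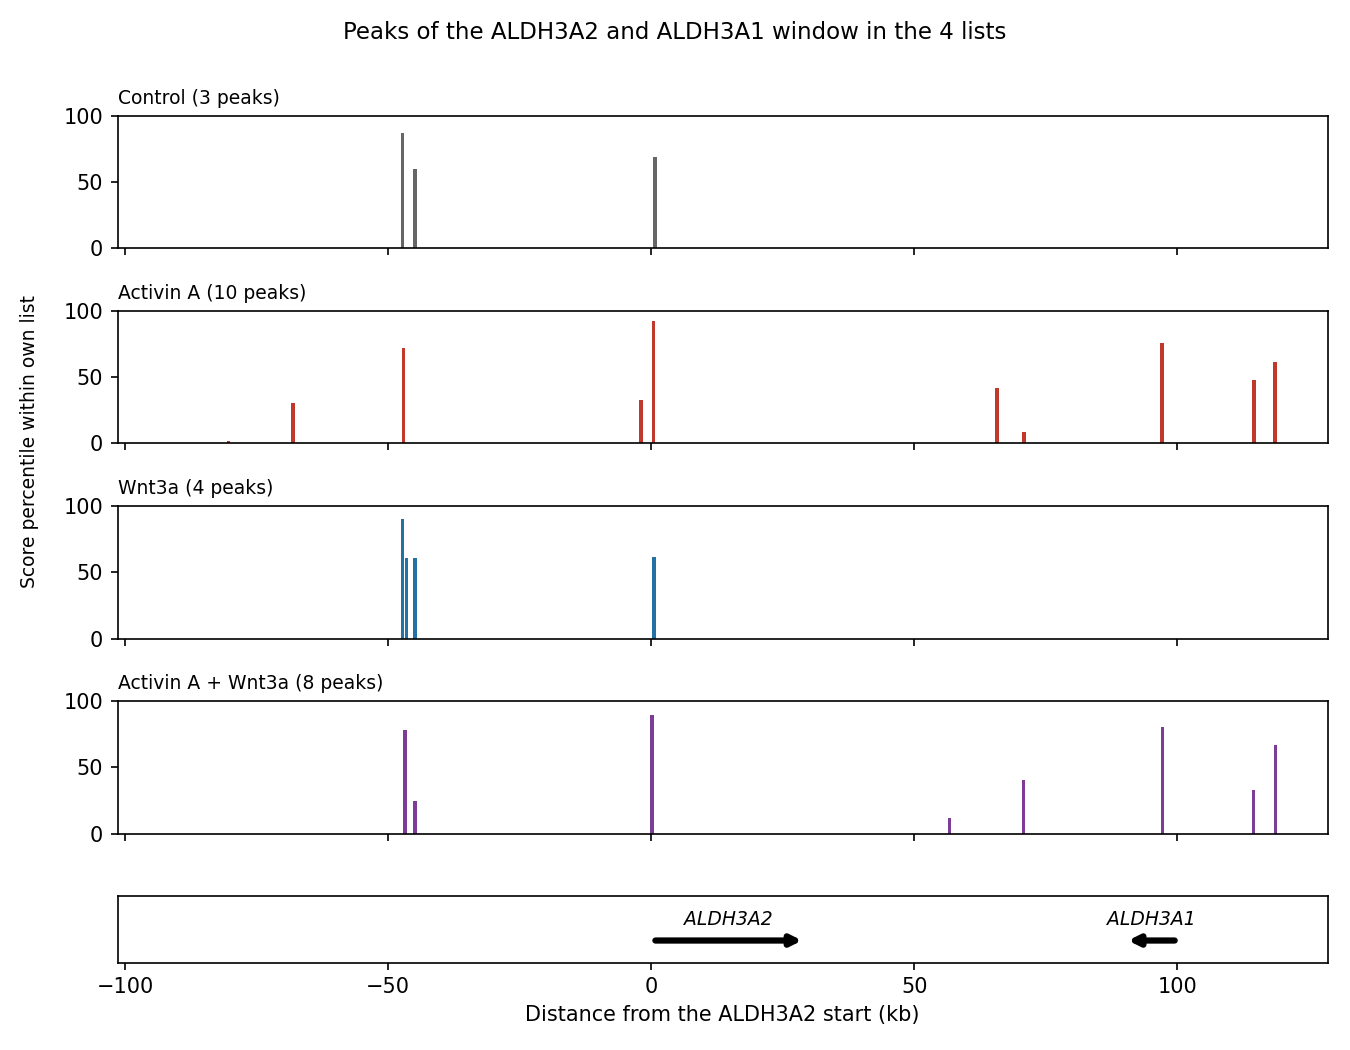
Peaks of the window in each list, by distance of the peak's centre from the ALDH3A2 start (kb, horizontal axis) and percentile of the peak's score within its own list (vertical axis, 0 to 100). Arrows mark the genes and their direction. Peaks to the right of 50 kb appear in the tracks of Activin A and of both ligands, and not in those of control and Wnt3a.

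Of the 12 regions, 2 had a peak in all 4 lists: the region at the ALDH3A2 start, and one 46.3 to 47.5 kb upstream of it. A further 4 regions were shared by Activin A and the combined treatment only, 4 were found with Activin A only, and 1 with the combined treatment only. The remaining region, 44.7 to 45.1 kb upstream of ALDH3A2, had a peak in every list but that of Activin A. Over the whole genome 14.8% of regions had a peak in every list, 21.9% were shared by Activin A and the combined treatment only, 30.1% were found with Activin A only and 12.4% with the combined treatment only, against 16.7%, 33.3%, 33.3% and 8.33% of the 12 regions here. By contrast, 0.0637% (56 of 87966) were in the control, Wnt3a and combined lists only.

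Every group had a peak at the 5′ end of ALDH3A2, although only those with Activin A and with both ligands covered the gene's first start, and in these 2 lists it was the strongest peak of the window. In control the peak was chr17:19551787-19552604, with a score (the authors' own value) of 101 and a percentile of 68.7 (68.1 to 69.2), where the percentile is the share of peaks in the same list with a score at or below it. After Activin A it was chr17:19551100-19552630, with a score of 529 and a percentile of 92.9 (92.7 to 93.1). Wnt3a gave chr17:19551524-19552479, with a score of 99.0 and a percentile of 61.6 (61.0 to 62.3). With both ligands it was chr17:19550482-19552823, with a score of 329 and a percentile of 89.6 (89.3 to 89.8). Control and Wnt3a were thus low and the groups given Activin A high, but scores of different libraries and percentiles of lists of different length do not by themselves show a change.

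A rank over the same regions in every list removes the difference in length, though not any effect of depth on the scores. Among the 13016 regions with a peak in all 4 lists, the ALDH3A2 start region stood at percentile 46.7 (45.8 to 47.5) in control, 61.3 (60.4 to 62.1) with Activin A, 45.7 (44.9 to 46.6) with Wnt3a and 57.0 (56.1 to 57.8) with both. The order of the groups was the same as before, and the counting intervals of control and Wnt3a overlapped. These intervals do not cover variation between libraries, so neither an overlap nor its absence compares the groups. The region ranked 14.6 percentile points higher after Activin A than in control and 10.3 points higher after both, 2 differences that share the control library, while with Wnt3a it dropped by 0.945 points. Differences of this size were common: 29.8% of these regions ranked at least 10 points higher after Activin A than in control, 29.3% after both and 33.7% after Wnt3a. The rise of the ALDH3A2 start after Activin A was equalled or passed by 23.7% of regions and that after both by 28.7%. With both ligands the rank was no higher than with Activin A alone, at 57.0 against 61.3.

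**Figure D2:**
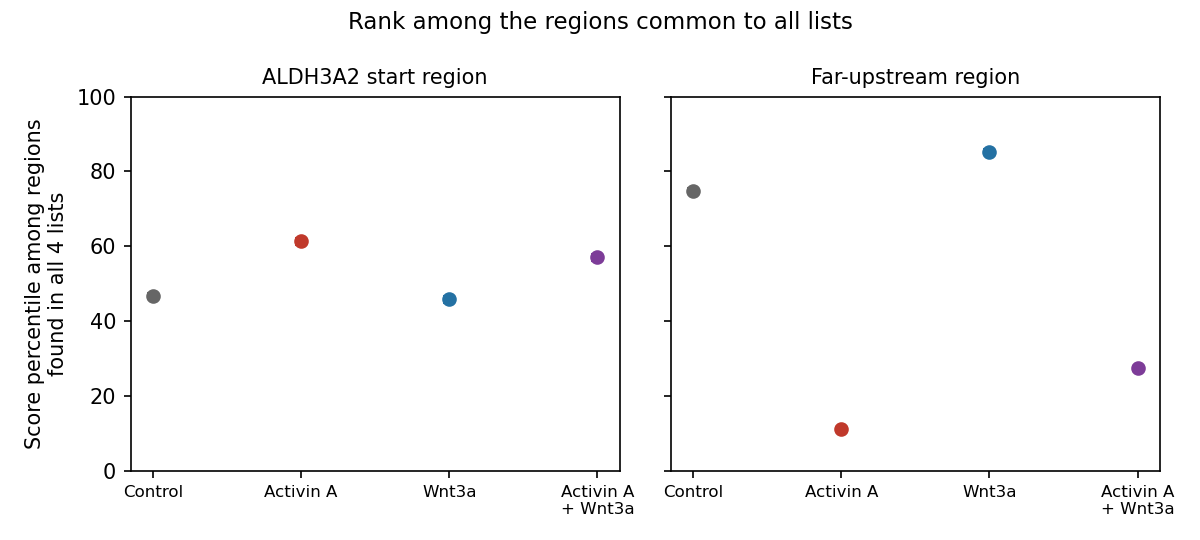
Score percentile (vertical axis, 0 to 100) in each group among the 13016 regions found in all 4 lists, for the ALDH3A2 start region (left) and the region 46.3 to 47.5 kb upstream of it (right); bars for the exact 95% interval are about as small as the points. The ALDH3A2 start runs from 45.7 to 61.3 and the upstream region from 11.2 to 85.3, with opposite orders of the groups.

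The extent of the ALDH3A2 peak differed between the lists as well. It was 818 bases wide in control, 1531 with Activin A, 956 with Wnt3a and 2342 with both ligands. The combined peak was the widest in absolute terms and also within its list, at the 98.99th percentile of width, against the 93.3rd after Activin A, the 87.4th after Wnt3a and the 69.4th in control. Relative to control the peak was 1.87 times as wide after Activin A, 1.17 times after Wnt3a and 2.86 times after both. Among the 10029 regions with exactly 1 peak in each list, the median ratio to control was 1.35, 0.889 and 1.38 in that order, and a ratio as large as that of ALDH3A2 was found in 17.5%, 17.9% and 1.88% of regions. The combined peak was 1.53 times as wide as that after Activin A alone, where the median ratio was 1.02 and 5.12% of regions reached as much.

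Most of the added width lay on the upstream side of the gene. Compared with control, the peak began 687 bases further upstream after Activin A and ended 26 bases further downstream. With both ligands the corresponding distances were 1305 and 219 bases. After Wnt3a the peak began 263 bases further upstream, and its downstream end fell short of that in control, as it reached 1030 bases past the first start against 1155. The Activin A peak began 349 bases before the first start and the combined peak 967 bases before it, so both covered that start, whereas the control peak began 338 bases after it and the Wnt3a peak 75 bases after it. The second, CG-rich start, 615 bases after the first on GRCh38.p14, fell within the peak of every group if that distance holds on hg19. The gene is 29461 bases long on both builds.

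**Figure D3:**
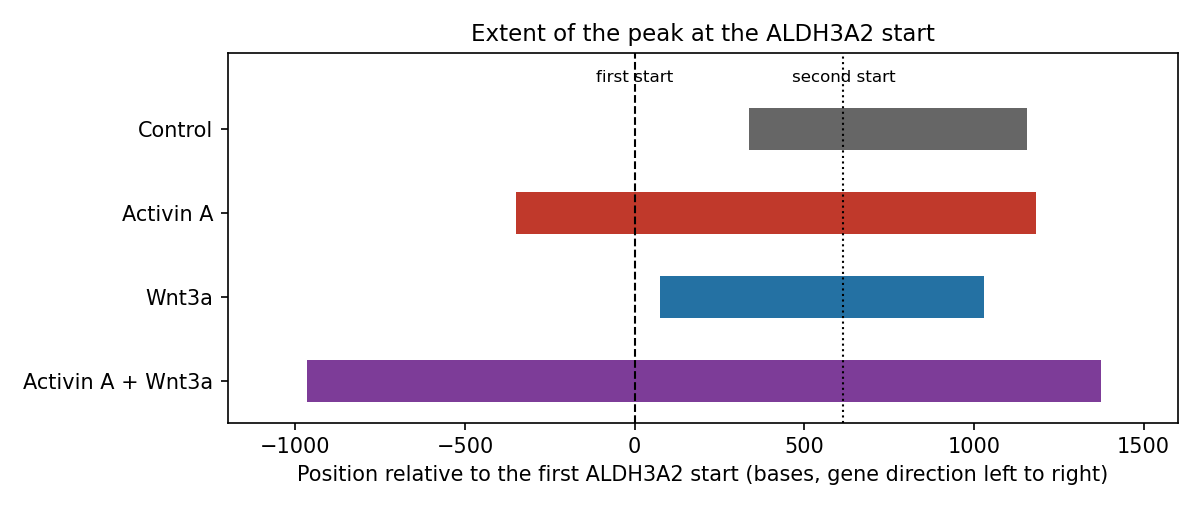
Extent of the peak at the ALDH3A2 start in each list, in bases relative to the first start (dashed line), with the second start at 615 bases (dotted line; distance taken from GRCh38.p14). The peaks after Activin A and after both ligands reach 349 and 967 bases before the first start, and those of control and Wnt3a begin 338 and 75 bases after it.

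A separate peak just upstream was listed after Activin A alone. It lay at chr17:19549103-19549873, from 2.35 to 1.58 kb before the ALDH3A2 start, with a score of 80.1 and a percentile of 33.1. The combined list had no peak there, although its start peak reached to within 1 kb of it. Of Activin A peaks in the same 10% band of scores, 57.6% had no combined peak and 88.9% had no control peak. Beyond the start region, no list had a peak in the rest of ALDH3A2.

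At ALDH3A1 no list had a peak over the gene's start. The nearest was inside the gene, at chr17:19648053-19648925 after Activin A and chr17:19648050-19649181 after both ligands, with its near edge 2821 and 2565 bases downstream of the start. The peak was 873 bases wide after Activin A with a score of 223 (percentile 76.0, 75.7 to 76.3), and 1132 bases wide after both with a score of 215 (percentile 80.3, 80.0 to 80.7). It was the second strongest peak of the window in both lists. Control and Wnt3a had no peak in the gene, and their nearest peak to the ALDH3A1 start was the one at the ALDH3A2 start, 99.1 and 99.3 kb away.

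The peak in ALDH3A1 stood out from the other peaks shared by Activin A and both ligands by its score, though its absence from control was not rare at that score. Of all Activin A peaks in the same 10% band of scores, 52.1% (50.9 to 53.2) had no control peak and 61.6% (60.5 to 62.7) no Wnt3a peak. Of combined peaks in the same 10% band, 18.4% (17.4 to 19.4) had no control peak and 27.2% (26.0 to 28.3) no Wnt3a peak. At equal list length its percentile was 13.8 with Activin A and 45.6 with both, and it was the only region of the window in the Activin A and combined lists and in no other.

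Upstream of ALDH3A1, 2 further regions were shared by Activin A and both ligands and by no other list. The nearer was chr17:19665768-19666253 after Activin A (percentile 47.8) and chr17:19665664-19666219 after both (32.8), 14.0 and 13.9 kb from the gene's start. The farther was chr17:19669735-19670207 after Activin A (percentile 61.3) and chr17:19669672-19670598 after both (67.2), about 18.0 and 17.9 kb from the start. The farther region ranked above the nearer one in each list, and it was wider after both ligands, at 927 bases against 473.

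The stretch between the genes held weaker peaks. In the RefSeq gene order SLC47A2, which encodes a transporter that exports organic cations, lies between ALDH3A2 and ALDH3A1, but its hg19 position was not used here and no peak was assigned to it. A region 70.5 to 71.1 kb after the ALDH3A2 start was at percentile 8.51 after Activin A and 40.9 after both. It was the weakest of the 4 regions shared by these lists alone in the Activin A list, and its percentile was above that of the nearer region upstream of ALDH3A1 in the combined list. Single-list peaks were found at chr17:19616776-19617499 after Activin A (percentile 42.2) and at chr17:19607731-19608534 after both (11.7). Further out on the ALDH3A2 side, peaks at chr17:19470791-19471379 (percentile 2.18) and chr17:19483052-19483577 (30.9) were in the Activin A list alone.

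Set against control, 8 of the 10 Activin A regions of the window had no control peak, where the share over all Activin A regions was 70.0%. Of the 8 combined regions 5 had no control peak (62.5% over all), and of the 3 Wnt3a regions none (33.1% over all). In the reverse direction 1 of the 3 control regions had no Activin A peak (11.5% over all), and none lacked a Wnt3a peak (46.5%) or a combined peak (15.2%). Between treatments, 4 of 10 Activin A regions had no combined peak (39.4% over all) and 2 of 8 combined regions had no Activin A peak (21.0%). Relative to Wnt3a, 8 of 10 Activin A regions (74.6% over all) and 5 of 8 combined regions (67.9%) had no peak in the Wnt3a list. For Activin A and the combined treatment these shares were near those of the whole lists, so the counts are not a result about ALDH3A2 and ALDH3A1, and for control and Wnt3a 3 regions are too few to read.

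A pair of regions lay about 45 and 47 kb upstream of ALDH3A2. By rank among regions found in all lists, the farther one had the opposite order of groups to the gene's own start. The nearer one had no Activin A peak and so no such rank. The farther one was the strongest peak of the window in control, at chr17:19503987-19504334 (score 160, percentile 87.0), and after Wnt3a, where it had the same ends (score 190, percentile 90.7). After Activin A it was chr17:19503979-19504683 (score 196, percentile 72.3), and after both chr17:19503979-19505186 (score 197, percentile 78.0). At equal list length the percentiles were 83.8 in control and 90.7 with Wnt3a, but 0.726 with Activin A and 39.1 with both. The Wnt3a list held another peak in this region, chr17:19504628-19505187 (percentile 61.0). Among the 13016 regions found in all lists the region stood at percentile 74.9 (74.1 to 75.6) in control, 11.2 (10.6 to 11.7) with Activin A, 85.3 (84.7 to 85.9) with Wnt3a and 27.3 (26.5 to 28.1) with both. Its rank was thus high in control and Wnt3a and low in the groups given Activin A. Its deposited score was not lower in those groups, at 196 and 197 against 160 in control and 190 with Wnt3a. Its strongest peak was also wider in them, at 705 and 1208 bases against 348 in control and 348 with Wnt3a. With the additional peak, however, the Wnt3a list covered 908 bases of the region, more than Activin A and less than both.

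Relative to control, which all 3 comparisons share, the rank of this region dropped by 63.7 points after Activin A and dropped by 47.6 points after both, and it was 10.4 points higher after Wnt3a. A fall of at least 10 points was found in 31.4% of all common regions after Activin A, in 31.0% after both and in 33.0% after Wnt3a, but a fall as large as this one was found in 0.469% (61 of 13016) after Activin A and in 2.32% after both. The nearer region was chr17:19506394-19506743 in control (percentile 59.9), chr17:19506394-19506717 after Wnt3a (60.7) and chr17:19506376-19506744 after both (24.7), and it had no Activin A peak. Of control peaks in the same 10% band of scores, 5.42% (4.58 to 6.36) had no Activin A peak. In the band of the Wnt3a peak the share was 1.89% (1.36 to 2.57) of Wnt3a peaks. In the band of the combined peak it was 37.1% (35.9 to 38.4) of combined peaks, so by that list the absence was not rare.

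**Figure D4:**
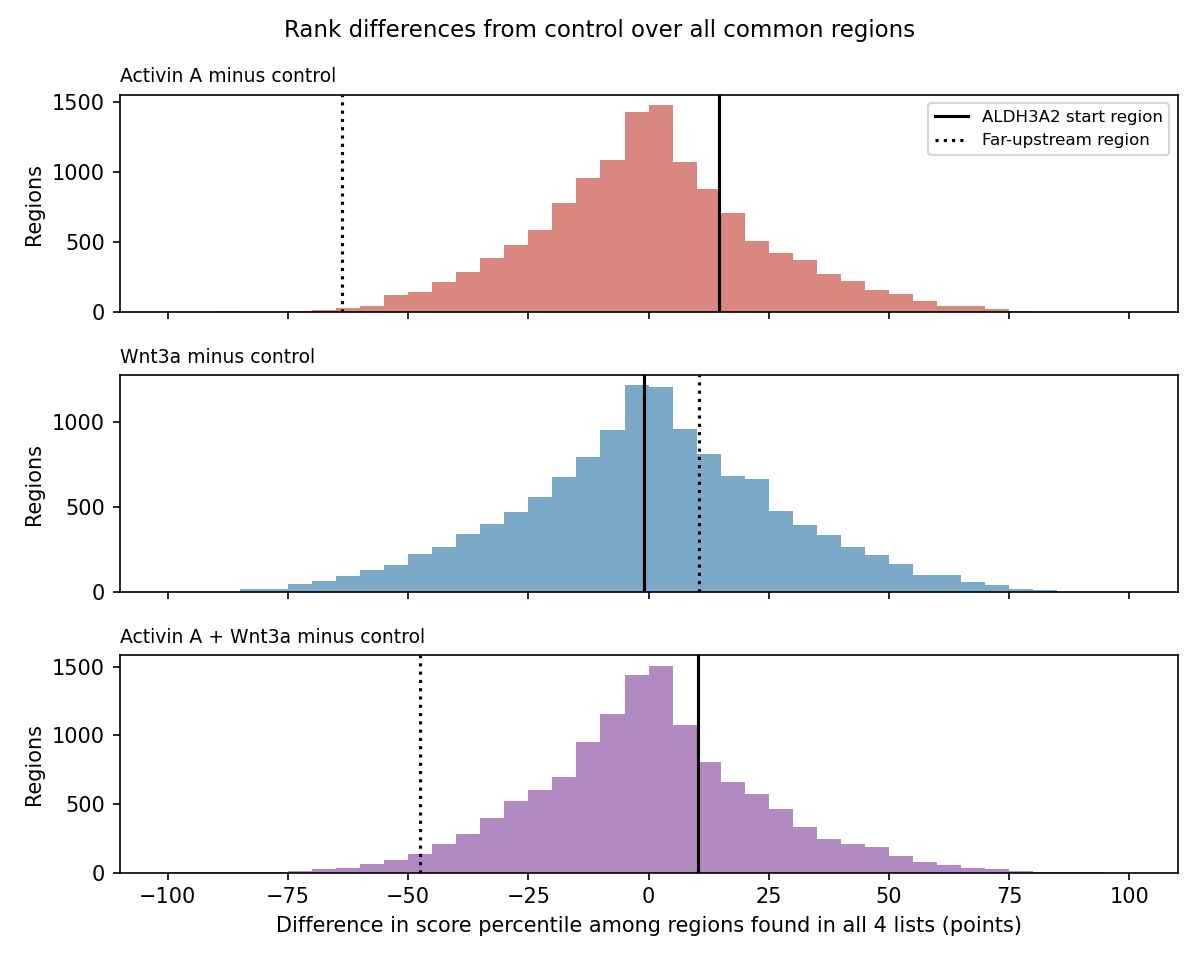
Number of regions (vertical axis) by difference from control in score percentile (points, horizontal axis, bins of 5) over the 13016 regions found in all 4 lists, for each treatment. The solid line marks the ALDH3A2 start region, at 14.6, -0.945 and 10.3 points from top to bottom, within the bulk; the dotted line marks the region 46.3 to 47.5 kb upstream, at -63.7, 10.4 and -47.6 points.

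Some peaks of these upstream regions were narrow for their lists. Those in control were 348 and 350 bases wide, those after Wnt3a 348 and 324 beside the additional peak of 560, and the nearer one after both 369. The farther region was not narrow in the other lists, where its peak was 705 bases wide with Activin A (53.2nd percentile of width) and 1208 with both (83.8th). A width of 369 bases or less was found in 0.225% of control peaks, 1.31% of Wnt3a peaks and 0.224% of combined peaks. This cut was the width of the widest peak in the nearer region, so that region's peaks meet it by construction. The farther region was 1 of only 5 places where a control and a Wnt3a peak had identical ends, among 13255 regions shared by the lists. The RefSeq gene order places pseudogenes of mitochondrial genes (MTND1P14, MTND2P12 and MTCO1P39) between SLC47A1 and ALDH3A2. Their hg19 positions were not used here, and whether mitochondrial reads take part in these peaks was not tested.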

How the data were processed

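ATAC-seq was analysed in 4 libraries of H1 cells, 1 per group, grouped by the labels. Per the submitters' processing notes, CASAVA 1.8, Bowtie2 2.2.2 and hg19 were used. The caller's settings, duplicate and mitochondrial read removal, read shifting and depth are not given in the sources used; each could change which weak peaks are listed. Peaks were called per sample and named in the style of MACS. Peak scores are the authors' values as deposited, of no stated unit; the lowest in any list was 50.03. They were used as a percentile within a list or among regions found in all lists.

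Peaks of the 4 lists overlapping by at least 1 base or book-ended were merged into regions over the whole genome, and a region was in a list that had a peak in it. Positions are hg19, counted from 1. Gene positions were those given with the rule for the window. An hg19 annotation was not used here, so other genes, including markers of the cell type and related aldehyde dehydrogenase genes, were not placed. The RefSeq tables (GRCh38.p14) gave gene order and promoter sequences for 1 of the 2 genes. Every region of the window is described, as the rule for named regions required. The window, the members and the measures were chosen with earlier results of these data known. The merging step was tested on the control list after some of its peaks were removed and artificial peaks planted. The percentile step was tested on a short set of known values. The ranking among regions found in all lists was not tested in this way. Python 3.11.15, numpy 2.4.6, pandas 2.3.3, scipy 1.17.1 and matplotlib 3.10.9 were used. Alternatives covered the window, list length, score threshold, merging, overlap and the set ranked.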

Additional observations from a re-analysis of the deposited data

How the results depend on the processing

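The ALDH3A2 start region kept its order of groups, with Activin A highest, then both ligands, control and Wnt3a, among regions found in all lists under every alternative run. Summing the peaks of a region gave percentiles of 43.2 in control, 59.3 with Activin A, 42.9 with Wnt3a and 54.9 with both, and using only regions with 1 peak in each list gave 48.1, 64.6, 47.0 and 60.9. Its percentile within each list was 69.4, 91.9, 65.3 and 88.8 on chromosome 17 alone. At equal list length it was 61.0 in control, 74.5 with Activin A and 71.1 with both, and 61.6, as before, with Wnt3a, whose list is whole, so the order of control and Wnt3a was then reversed. At equal length the peak in ALDH3A1 moved to 13.8 with Activin A and 45.6 with both, and the far-upstream region to 83.8 in control, 0.726 with Activin A and 39.1 with both. The latter region, with its peaks summed, stood at 71.3, 10.3, 94.6 and 25.6, and its Wnt3a peaks covered 908 bases together.

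Peak counts moved by more than 1.5 times in all lists where the window was cut to the stretch between the gene starts or widened. Where the lists were cut, only the counts with Activin A and with both moved by as much. Between the gene starts there were 1, 4, 1 and 4 peaks in control, Activin A, Wnt3a and both, and with 200 kb more on each side 7, 29, 9 and 22. At equal list length 3 peaks were left with Activin A and 4 with both, and 4 each in the top 50% of scores. Under either cut control kept 3 peaks and Wnt3a 4. Without the 2 regions about 45 and 47 kb upstream, an alternative chosen after seeing the data, control and Wnt3a held 1 peak each. The regions numbered 5 at equal length and 5 in the top 50%, of which 1 and 2 were shared by Activin A and both only. Regions absent from control were then, at equal length, 1 with Activin A and 2 with both, as were those absent from Wnt3a; 1 combined region lacked an Activin A peak and 0 Activin A regions lacked a combined peak. The alternative requiring an overlap of 50% of each peak counted peaks, where the main values counted regions. It left 1 Wnt3a peak unmatched in control and 2 control peaks unmatched with Activin A. In control, 9 Activin A and 7 combined peaks were unmatched, and as many were unmatched in Wnt3a. Between Activin A and both, 4 Activin A peaks and 2 combined peaks were unmatched, the same numbers as for regions. Cutting the window or the lists can only lower a count of peaks, but how far it falls is not fixed by the cut. For the counts and the percentiles the cause of the moves was not tested. Of 116 alternative values 61 stayed and 55 moved.

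Depth is unknown for all libraries, and score, width and presence of a peak can all depend on it. Width ratios and the counts of all regions were not recomputed under the alternatives, and related genes were not analysed here. No paired analysis was possible because there were no replicates to pair.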

Other observations

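The control and Wnt3a lists had peaks with identical ends in 5 places, and 3 of these were on chromosome 17. Only 2 of the 5 peaks were 369 bases wide or less, the one at chr17:19503987-19504334 upstream of ALDH3A2 and one of 365 bases at chr17:22019853-22020217, at percentile 36.7 in control and 60.7 with Wnt3a. This second place was chosen after its values were seen. The cut of 369 bases was itself taken from the peaks of the nearer upstream region.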
